A study of Mus musculus with 2 samples.

Results

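The vitamin A pathway of the mouse uterus was described through 9 genes: the retinol receptor Stra6, the carriers Rbp4, Crabp1 and Crabp2, the retinoic acid synthesising dehydrogenases Aldh1a1, Aldh1a2 and Aldh1a3, and the retinoic acid degrading enzymes Cyp26a1 and Cyp26b1. The genes were picked by symbol from the 32285 listed in both count matrices, with measured differences between these libraries already known, so their levels and ratios are a description and were not tested. Whole uteri of 6-month-old female mice were dissociated and profiled by droplet single-cell RNA sequencing of transcript 3′ ends. The control library (Prickle1 f/f) and the conditional knockout library (cKO, Prickle1 f/f Ltf-cre) each came from a pool of 3 mice, and both carried floxed Prickle1 alleles. Cre in the cKO mice was driven from Ltf, a gene of the uterine epithelium. A genotype entry of the labels calls both samples C57BL/6J wild-type, so the group names follow the sample titles. Each group has 1 library, so the effect of genotype cannot be told apart from that of the animals or of handling and sequencing, and no p-value is given. Intervals are 95% intervals that cover counting error only.

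Retinol travels in blood bound to the RBP4 protein and enters cells through the membrane receptor STRA6. Inside the cell retinol is oxidised to retinal and then, by an ALDH1A enzyme, to retinoic acid, which binds nuclear receptors. CRABP1 and CRABP2 hold retinoic acid in the cytoplasm, and CYP26 enzymes oxidise it for removal, so that cells with ALDH1A and cells with CYP26 act as sources and sinks. In the uterus retinoid signalling takes part in stromal decidualisation and in maintaining the epithelium.

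The transcription start sequences are shown for the genes on which the stromal results turn. RefSeq start windows (GRCm38.p6, 250 bases before to 50 bases after each start) were at hand for 7 of the 9 genes, with 12 windows in all, since Stra6 has 4 starts and Rbp4 and Aldh1a1 have 2 each. UMIs from 3′ ends do not show which start was used. Stra6 is printed at the most upstream of its 4 RefSeq starts. The GENCODE gene begins further upstream, at chr9:58063788, and that start was not searched. Each window was searched on both strands for the 6-base retinoid receptor motif, taken as AGGTCA or AGTTCA or GGGTCA or GGTTCA, and for direct repeats of it with a spacer of 1, 2 or 5 bases. Aldh1a2, Cyp26b1 and Stra6 are shown because all 3 were higher in the cKO stroma and the Aldh1a2 pairs described below turn on them, and Cyp26a1 because it had no stromal UMI. The 250 bases before the start are printed 5′ to 3′ on the strand of the gene, with matches to the 6-base motif in capitals.

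Aldh1a2, chr9:71215539-71215788, plus strand: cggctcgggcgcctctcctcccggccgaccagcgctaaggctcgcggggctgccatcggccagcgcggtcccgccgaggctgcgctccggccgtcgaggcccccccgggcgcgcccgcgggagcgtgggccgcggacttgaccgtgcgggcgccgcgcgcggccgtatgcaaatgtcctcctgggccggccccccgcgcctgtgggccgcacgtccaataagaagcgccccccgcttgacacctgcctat
Cyp26b1, chr6:84593811-84594060, minus strand: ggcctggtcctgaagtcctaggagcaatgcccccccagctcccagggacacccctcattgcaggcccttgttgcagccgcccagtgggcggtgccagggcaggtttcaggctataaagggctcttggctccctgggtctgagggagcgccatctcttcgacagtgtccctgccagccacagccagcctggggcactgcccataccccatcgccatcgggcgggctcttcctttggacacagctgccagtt
Stra6, the most upstream start, chr9:58128838-58129087, plus strand: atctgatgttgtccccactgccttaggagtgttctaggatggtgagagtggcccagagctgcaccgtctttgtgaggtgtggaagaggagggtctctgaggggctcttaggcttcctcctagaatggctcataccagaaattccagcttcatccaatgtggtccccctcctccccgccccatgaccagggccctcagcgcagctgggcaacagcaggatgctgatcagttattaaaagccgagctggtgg
Cyp26a1, chr19:37697558-37697807, plus strand: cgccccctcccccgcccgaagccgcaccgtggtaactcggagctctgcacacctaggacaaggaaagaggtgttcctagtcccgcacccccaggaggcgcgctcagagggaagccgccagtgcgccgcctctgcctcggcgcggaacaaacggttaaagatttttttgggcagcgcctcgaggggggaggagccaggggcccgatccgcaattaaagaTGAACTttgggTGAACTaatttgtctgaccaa

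The Cyp26a1 window held a direct repeat with a 5-base spacer, read as AGTTCA on the opposite strand, from base -32 to base -16 relative to the start. A repeat of that kind occurred in 32 of 32851 RefSeq windows (0.0974%), while at least 1 6-base motif occurred in 43.7% of them. No other window of these genes held a repeat with any of the 3 spacers. Aldh1a2 and Cyp26b1 had no match to the 6-base motif, and single matches stood in 1 of the 4 Stra6 windows, 1 of 2 Aldh1a1 windows and 1 of 2 Rbp4 windows. The Aldh1a2 window was rich in G and C (78.0%, against a median of 52.7% over all windows).

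Cells were barcodes with at least 500 genes and at most 20% mitochondrial UMIs, which left 3653 control cells (median 4650 UMIs) and 4950 cKO cells (median 5944). The mitochondrial limit removed 283 control and 46 cKO barcodes with at least 500 genes. A cell was placed in a class by at least 1 UMI of a gate gene and none of the other 5: Epcam for epithelial, Pdgfra for stromal, Actg2 for muscle, C1qa for macrophage, Flt3 for dendritic and Msln for mesothelial cells. Control and cKO then held 949 and 105 epithelial, 630 and 1501 stromal, 290 and 539 muscle, 231 and 113 macrophage, 44 and 144 dendritic, and 25 and 34 mesothelial cells. Lymphoid cells (Nkg7 or Cd3g, 164 and 694) served as the class that should lack these genes. Levels are given as CPM, the UMIs of a gene for every 1000000 UMIs of the class. Of the stromal cells 99.2% and 98.7% carried a UMI of another stromal marker. The Epcam gate did not hold equally well: 98.4% of control cells but 65.7% of cKO cells had another epithelial marker, and 49.5% of cKO cells had a lymphoid marker (control 3.48%). Endothelial markers there summed to 11.9 CPM in 3.69% of control cells and 209.5 CPM in 36.2% of cKO cells. Prickle1 had 14 UMIs in control and 4 in cKO epithelial cells (0.831 and 1.33 CPM, with overlapping intervals), and stood at 3.76 and 8.83 CPM in stromal cells. The labels do not say which part of Prickle1 is floxed, so 3′ UMIs do not check the deletion.

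**Figure D1:**
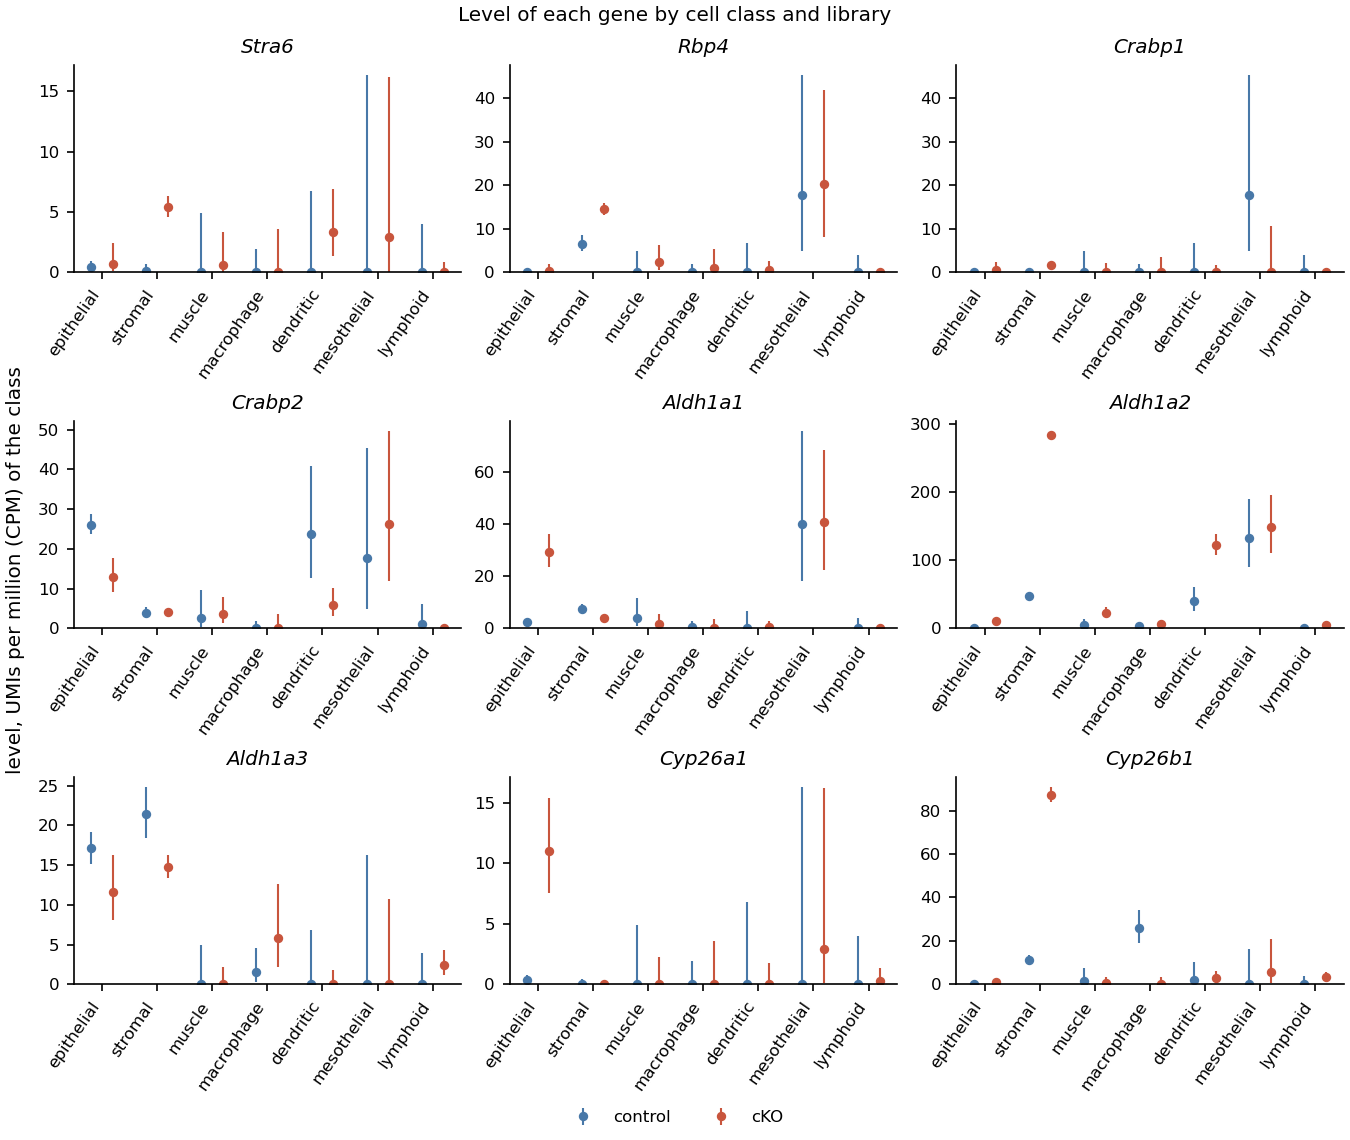
Level of each gene (CPM, linear axis) in 7 cell classes, with control in blue and cKO in red; bars are exact 95% Poisson intervals of the summed counts. Aldh1a2 and Cyp26b1 stood highest in cKO stromal cells (283 and 87.3 CPM), and Cyp26a1 stood above 1 CPM with more than 1 UMI only in cKO epithelial cells.

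In the stroma, the uptake gene, the secreted carrier, 1 of 3 synthesis genes and 1 of 2 breakdown genes were all higher in the cKO library. Genes were counted in a class where both libraries together gave at least 20 UMIs, and called past 2-fold on log2 values with 0.5 UMI added. Of the 8 genes counted in stroma (Cyp26a1 had 0 UMIs in both libraries), 5 were past 2-fold higher and 0 past 2-fold lower. Over all 13646 genes counted in stroma, 5.44% were past 2-fold higher and 6.87% past 2-fold lower. Since the genes were chosen on this contrast, nothing is read from that difference in shares. The median log2 ratio of the 8 genes was 1.86, against -0.03 over all genes. Thinned to 1000 UMIs per cell, 2 genes were counted and past 2-fold higher.

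Stra6 (GRCm38, chr9:58063788-58153996, plus strand), which moves retinol across the cell membrane, had 1 UMI in 630 control stromal cells and 143 UMIs in 1501 cKO stromal cells. The levels were 0.121 CPM (0.00307 to 0.675) and 5.40 CPM (4.55 to 6.36), a ratio of 44.5 with an interval from 7.87 to 1771 that reflects the lone control UMI. Thinned to 1000 UMIs per cell the log2 ratio was 1.90 in place of 4.90. Stra6 UMIs were seen in 85 cKO stromal cells (5.66%), at most 7 in a cell, and in 0 of 694 cKO lymphoid cells, which by 3 counts of the total allows a share of cells with a UMI of up to 0.432% (exact upper limit 0.530%). Median depth was 15817 UMIs in cKO stromal and 5010 in cKO lymphoid cells. The cell-free level, from barcodes of at most 100 UMIs, was 1.16 CPM in control and 5.69 CPM in cKO.

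Rbp4 (chr19:38116629-38125281, minus strand), the plasma carrier of retinol, had 54 UMIs in control and 384 in cKO stromal cells. That was 6.54 CPM (4.92 to 8.54) and 14.5 CPM (13.1 to 16.0), a ratio of 2.21 (1.66 to 3.00). Rbp4 UMIs were found in 6.19% and 14.2% of stromal cells, and in 4.64% and 10.8% when cells were thinned to 10000 UMIs each. No lymphoid cell of either library held one. In mesothelial cells 4 and 7 UMIs gave 17.7 and 20.4 CPM, with intervals that overlapped that of the cKO stroma. Thinned to 1000 UMIs per cell, the stromal log2 ratio was 0.46 in place of 1.14. It was also short of 2-fold with cells of several gate genes kept (0.97) and by the mean of cells (0.94).

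Crabp1 (chr9:54764748-54773110, plus strand), a cytoplasmic retinoic acid binder, went from 1 UMI to 45 UMIs in stroma (ratio 14.0, 2.39 to 566), in 30 cKO cells. Thinned to 1000 UMIs per cell the log2 ratio was 0.32, against 3.24 unthinned. Crabp2 (chr3:87948666-87953376, plus strand), the carrier that hands retinoic acid to its nuclear receptor, had 31 and 107 stromal UMIs (3.76 and 4.04 CPM, ratio 1.08, 0.715 to 1.66). The sign of the small Crabp2 difference turned under thinning to 1000 UMIs (log2 -0.32).

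Aldh1a2 (chr9:71215789-71296243, plus strand), the principal retinoic acid synthesising enzyme of mesenchyme, gave most of the UMIs. Control stroma had 388 UMIs (47.0 CPM, 42.5 to 51.9) and cKO stroma 7493 UMIs (283 CPM, 276 to 289), a ratio of 6.01 (5.43 to 6.68). Cells with an Aldh1a2 UMI made up 6.83% of control and 41.3% of cKO stromal cells. After thinning to 10000 UMIs per cell, which kept 366 and 1100 cells, the shares were 7.92% and 41.2%. After thinning to 1000 UMIs they were 3.23% and 15.1%. The median positive cell held 5 UMIs in control and 6 in cKO. Thus the libraries differed mainly in the share of stromal cells with Aldh1a2 and less in the count per positive cell. Of the cKO lymphoid cells 0.288% held an Aldh1a2 UMI, and 18 of their 19 UMIs came from 1 cell, although the cell-free level was 122 CPM in cKO and 15.1 CPM in control.

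The other synthesis genes went the other way in the stroma, short of 2-fold. Aldh1a3 (chr7:66390890-66427517, minus strand) had 177 UMIs in control (21.4 CPM, 18.4 to 24.9) and 391 in cKO (14.8 CPM, 13.3 to 16.3), a ratio of 0.688 (0.575 to 0.826). Aldh1a1 had 60 and 108 UMIs (7.27 and 4.08 CPM, ratio 0.561, 0.405 to 0.782). Both ratio intervals lay below 1, and thinned to 1000 UMIs per cell the log2 ratio of Aldh1a1 was -1.89 in place of -0.84. The share of stromal cells with Aldh1a3 was 8.25% in control and 5.80% in cKO, and with Aldh1a1 7.78% and 4.86%. In lymphoid cells those shares were 0 and 0.576% for Aldh1a3 and 0 in both libraries for Aldh1a1.

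Cyp26b1 (chr6:84571414-84593908, minus strand), which degrades retinoic acid, had 91 UMIs in control (11.0 CPM, 8.88 to 13.5) and 2313 in cKO stroma (87.3 CPM, 83.8 to 90.9), a ratio of 7.92 (6.42 to 9.87). Unlike Aldh1a2, the share of stromal cells with Cyp26b1 was 5.08% in control and 10.2% in cKO (lymphoid cells 0 and 0.432%), while a few cells held very many UMIs. In cKO, 14 of the 153 positive cells together held at least 50% of the Cyp26b1 UMIs, and the top cell held 153 UMIs (6.61%). In control, 5 of 32 positive cells did so. When each cell was given equal weight the log2 ratio was 2.36, against 2.98 from summed counts. Cyp26a1 was not detected in 8252017 control and 26494821 cKO stromal UMIs, which by 3 counts allows 0.364 and 0.113 CPM (exact upper limits 0.447 and 0.139 CPM).

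Genes were then paired within single stromal cells. In the cKO stroma an Aldh1a2 UMI was present in 81 of 85 Stra6-positive cells (95.3%, 88.4 to 98.7) and in 38.1% of the others. Stra6-positive cells were deeper (median 24987 UMIs, against 15456), but with every cell thinned to 10000 UMIs the shares were 92.7% (38 of 41 cells) and 39.2%. Aldh1a2 stood at 677 CPM in Stra6-positive cells and 240 CPM in the rest. Aldh1a3 was in 0 of the 85 Stra6-positive cells, which by 3 counts allows a share of cells with a UMI of up to 3.53% (exact upper limit 4.25%), and in 6.14% of the other cells. The lone Stra6-positive stromal cell of the control library held 24 Aldh1a2 UMIs.

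Cyp26b1 was next paired with Aldh1a2. In cKO, 118 of 153 Cyp26b1-positive stromal cells (77.1%, 69.6 to 83.5) had Aldh1a2, against 37.2% of the others. Thinned to 10000 UMIs these shares were 78.1% and 37.3%, and thinned to 1000 UMIs 59.6% and 13.5%. Aldh1a2 stood at 846 CPM in Cyp26b1-positive and 194 CPM in Cyp26b1-negative cKO cells. In control, 1 of 32 Cyp26b1-positive cells had Aldh1a2 (3.13%, 0.0791 to 16.2), against 7.02% of the others. Those 32 control cells carried Aldh1a3 at 73.2 CPM (50.4 to 103), against 18.5 CPM (15.6 to 21.7) without Cyp26b1, but these 33 UMIs lay in 3 cells, and the shares of cells with Aldh1a3 were 9.38% (1.98 to 25.02) and 8.19%. Counted from the other gene, 118 of 620 Aldh1a2-positive cKO cells (19.0%) had Cyp26b1, so most cells with the synthesis gene had no UMI of the breakdown gene. The control interval includes the share without Cyp26b1, and the difference between the libraries was not tested. For Stra6 and Cyp26b1 the reading depended on the direction and on depth. Stra6 stood at 6.40 CPM (4.06 to 9.60) in Cyp26b1-positive and 5.24 CPM (4.34 to 6.27) in Cyp26b1-negative cKO cells. Cyp26b1 stood at 130 CPM (116 to 145, from 337 UMIs) in Stra6-positive and 82.7 CPM (79.1 to 86.4) in Stra6-negative cKO cells. Its UMIs were clumped in few cells, which these intervals do not cover. Cyp26b1 was in 21.2% of Stra6-positive cells and 9.53% of the others, and in 12.2% (4.08 to 26.2) and 9.44% after thinning to 10000 UMIs.

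Other pairs with Aldh1a2 in cKO stroma were weaker or rested on depth. Crabp1-positive cells had Aldh1a2 in 26 of 30 cases (86.7%, against 40.4%), and in 10 of 15 after thinning to 10000 UMIs (66.7%, against 40.8%, with an interval from 38.4 to 88.2). For Crabp2 the shares were 58.6% and 40.2% unthinned, and 43.9% and 41.1% at 10000 UMIs. For Rbp4 they were 46.9% and 40.4% unthinned, and 36.1% and 41.8% at 10000 UMIs. Aldh1a3-positive cells had Aldh1a2 less often, in 23 of 87 (26.4%, against 42.2%), and in 9 of 54 (16.7%, against 42.4%) after thinning. Of the 73 Aldh1a1-positive cells 35 had Aldh1a2 (47.9%, 36.1 to 60.0, against 41.0% of the others). Exactly 1 of the 3 was seen in 128 control and 657 cKO cells, 2 in 8 and 60 cells, and all 3 in 0 and 1 cells. At least 1 of the 9 genes was seen in 31.9% of control and 58.2% of cKO stromal cells.

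**Figure D2:**
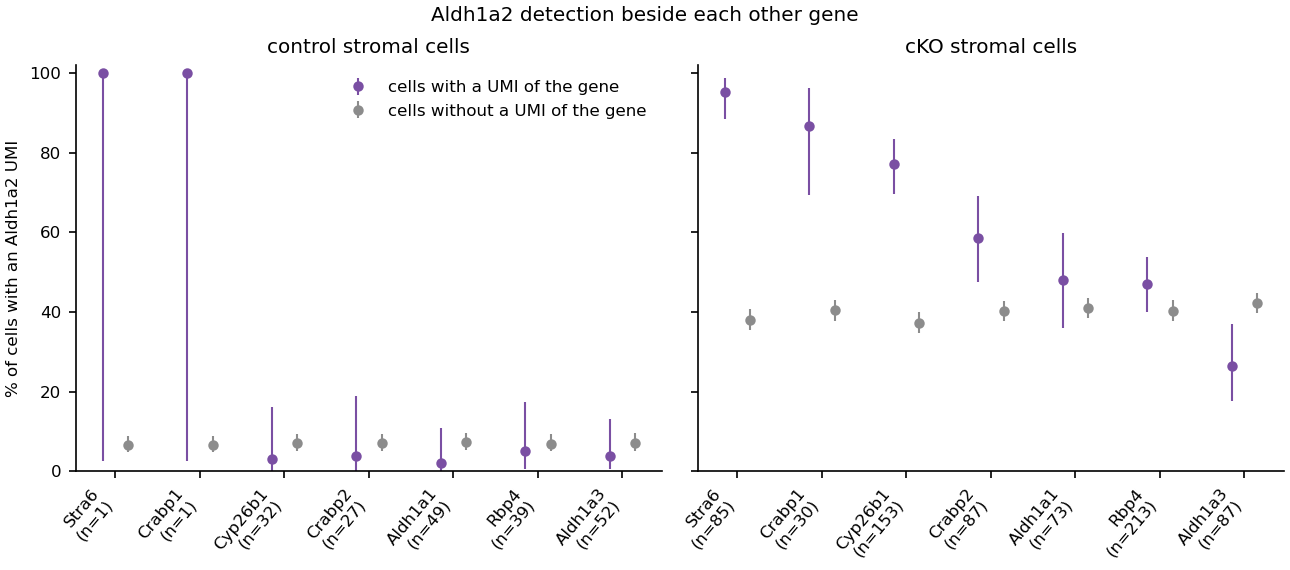
Percent of stromal cells with an Aldh1a2 UMI among cells with (purple) and without (grey) a UMI of each other gene, in control (left) and cKO (right), with exact binomial 95% intervals and n the number of positive cells. In cKO the purple points for Stra6 (95.3%), Crabp1 (86.7%) and Cyp26b1 (77.1%) lie far above the grey ones, and the point for Aldh1a3 (26.4%) lies below; in control the Stra6 and Crabp1 points rest on 1 cell each.

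The libraries held different mixtures of stromal cells, so levels were also compared within 5 groups of stromal cells, each holding at least 2 UMIs of a marker set taken from earlier results on these data. The groups overlap: in cKO, 378 cells were in both the Hsd11b2, Rorb, Syt2 group (588 cells) and the Dio2, Prrx2 group (584 cells). The Hsd11b2 group was 7.46% of control and 39.2% of cKO stromal cells, and the Dio2 group 12.2% and 38.9%. In contrast the Inmt, Myoc, Scara5 group was 24.1% and 8.86%. Of the cKO cells in the Inmt group 39.1% were also in the Hsd11b2 group and 30.1% in the Dio2 group, against 7.24% and 3.29% in control. The sets were drawn from these data, and the Dio2 set comes from a group described earlier by Cyp26b1 together with Dio2 and Prrx2. Sizes and levels are therefore a description, and a high Cyp26b1 level in the Dio2 group follows from how it was chosen.

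Aldh1a2 was concentrated in the Hsd11b2 and Dio2 groups in both libraries. Those groups held 54.1% and 74.0% of the control stromal Aldh1a2 UMIs, and 82.7% and 85.1% of the cKO ones. Within the Hsd11b2 group the control level was 257 CPM and the cKO level 460 CPM, which gives a ratio of 1.79 (1.56 to 2.06), and within the Dio2 group 215 and 471 CPM, a ratio of 2.19 (1.95 to 2.47). These within-group ratios were smaller than the 6.01 over all stromal cells. Within the Inmt group, by contrast, Aldh1a2 went from 4 UMIs in 152 control cells to 479 UMIs in 133 cKO cells (1.60 and 159 CPM, ratio 98.8, 38.3 to 364). The Cilp, Sfrp4, Gpr83 group (ratio 3.56) and the Il6, Cxcl5 group (ratio 5.98) lay between.

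Cyp26b1 did not follow that pattern. Its ratio was nearer 1 in the Cilp (11.5 and 13.4 CPM), Inmt (12.8 and 18.5 CPM) and Il6 groups (9.37 and 13.9 CPM), with ratio intervals that included 1. At 4 marker UMIs the log2 ratio was 1.51 in place of 0.21 in the Cilp group, and the ratio was 2.22 (1.25 to 3.98) in place of 1.44 in the Inmt group, so both intervals then lay above 1. In the Dio2 group it went from 6 UMIs in 77 control cells to 2119 UMIs in 584 cKO cells (4.49 and 156 CPM, ratio 34.8, 16.0 to 94.96). In the Hsd11b2 group it went from 0 UMIs in 47 control cells to 1748 in 588 cKO cells, at least 35.3-fold higher against a floor of 3 UMIs for the group (exact lower limit of the ratio 28.7). The Dio2 group held 6.59% of the control and 91.6% of the cKO stromal Cyp26b1 UMIs. Depth was similar in these groups (medians of 16642 and 19420 UMIs in the Dio2 group, 19543 and 19441 in the Hsd11b2 group).

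For Stra6, the Hsd11b2 group held 122 of the 143 cKO stromal Stra6 UMIs (85.3%) at 9.05 CPM, and the group had no Stra6 UMI in control. Stra6 also had 27 UMIs in 771 cKO cells of the Cilp group, against 0 in 219 control cells. In the Il6 group it had 22 UMIs in 438 cKO cells, against 0 in 108 control cells. It had 115 against 1 in the Dio2 group and 5 against 0 in the Inmt group, where the lower ratio limit was 0.756. At 4 marker UMIs that limit was 0.507 (Cilp), 0.818 (Il6), 1.30 (Hsd11b2) and 1.36 (Dio2), and the Inmt group had no Stra6 UMI in either library. Rbp4 was higher in cKO in all 5 groups, with ratios of 2.29 (Cilp), 2.73 (Hsd11b2), 2.97 (Inmt), 2.09 (Il6) and 2.38 (Dio2) and intervals above 1. At 4 marker UMIs the Rbp4 intervals included 1 in the Hsd11b2 (0.824 to 25.3) and Dio2 groups (0.760 to 4.06). Of the cKO stromal Aldh1a3 UMIs the overlapping Cilp and Il6 groups held 80.1% and 73.1%, the Hsd11b2 group 21.2% and the Dio2 group 11.8%. The Cilp and Il6 groups were 51.4% and 29.2% of cKO stromal cells. Within the Inmt and Il6 groups the Aldh1a3 levels of the libraries overlapped (41.7 and 39.7 CPM in the Inmt group, 30.1 and 33.9 CPM in the Il6 group), while the ratio was 0.552 (0.449 to 0.682) in the Cilp group and 0.314 (0.183 to 0.575) in the Hsd11b2 group. At 4 marker UMIs these ratios turned to 1.34 (0.956 to 1.91) and, from 1 control UMI, 2.54 (0.437 to 102.01).

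**Figure D3:**
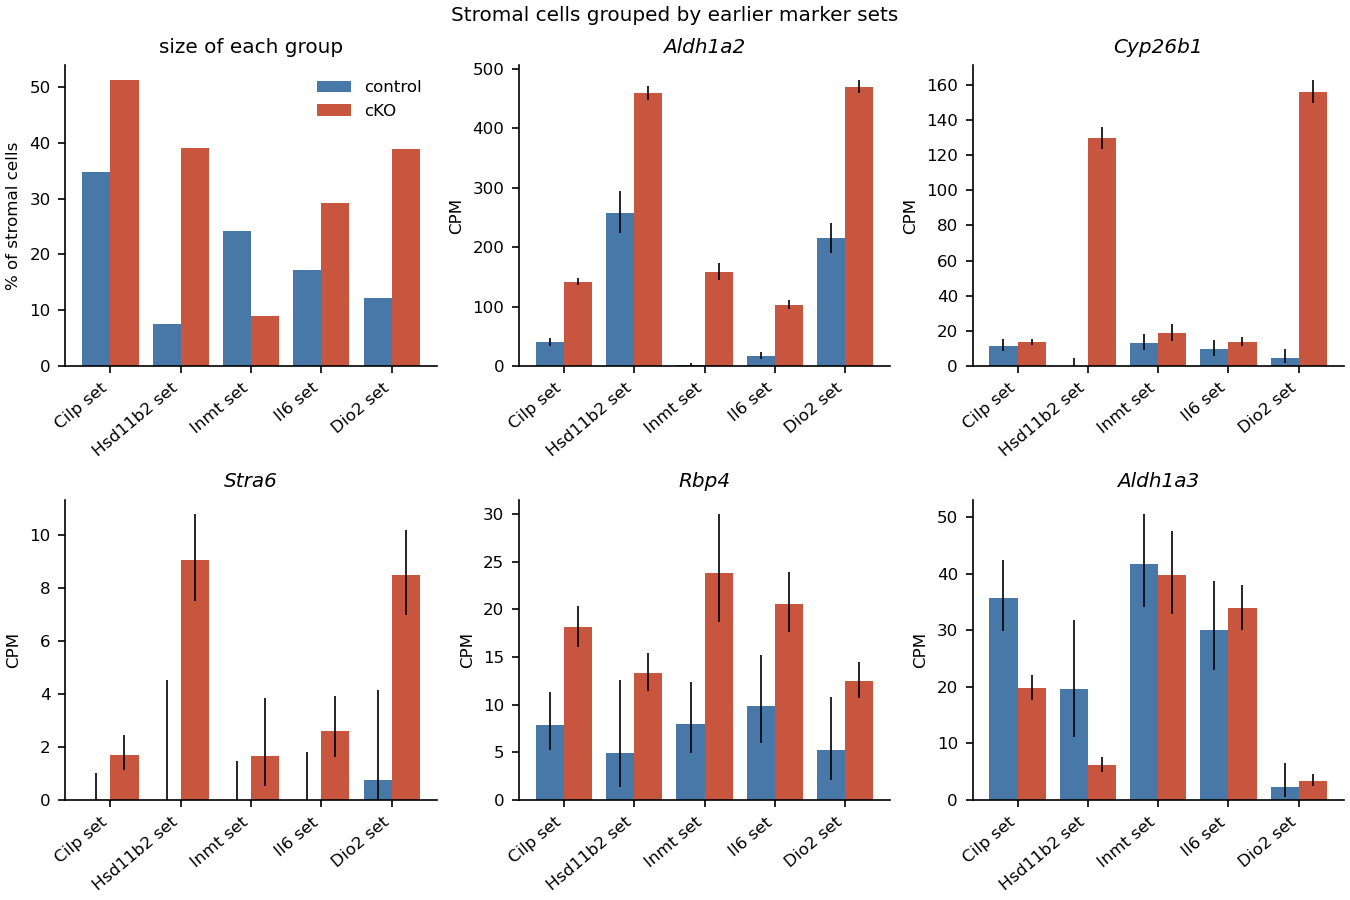
Size of 5 overlapping marker-defined groups of stromal cells (percent of stromal cells) and level of 5 genes within them (CPM, linear axis), control in blue and cKO in red; thin bars on levels are exact 95% Poisson intervals. Cyp26b1 is high only in the cKO bars of the Hsd11b2 and Dio2 groups (130 and 156 CPM), Aldh1a2 is already present there in control (257 and 215 CPM), and Rbp4 is higher in cKO in each group.

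Over the 1501 cKO stromal cells, the genes whose per-cell levels correlated most with Aldh1a2 were Atp8a1 (Pearson r = 0.62), P2ry14 (0.59), Scube1 (0.58), Igf1 (0.54) and Tuba1a (0.53). For Cyp26b1 they were Nrg2 (0.46), Crispld2 (0.40), Aldh1a2 (0.40), Crtac1 (0.39) and Kank1 (0.39). Stra6 was closest to Bmp7 (0.31), Igfbp4 (0.30), Scube1 (0.26), Atp8a1 (0.24) and Lgals1 (0.23). Crabp2 was closest to the heat shock genes Hspa1a (0.27), Hspa1b (0.26) and Hsp90aa1 (0.25), then Hbegf (0.24) and Zc2hc1c (0.22). Aldh1a3 was near Sox9 in both libraries (0.28 over 630 control cells and 0.21 in cKO), with Pcolce2 (0.40) nearest in control and Tslp (0.23) in cKO. No gene reached 0.2 for Rbp4 or Aldh1a1. These correlations share the library and the depth of each cell, and they describe likeness and nothing more.

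In Epcam-gated cells the cKO library had more UMIs of Aldh1a1 and of Cyp26a1. Of the 5 genes counted there, 3 were past 2-fold higher and 0 past 2-fold lower, where 26.1% of 12623 genes were past 2-fold higher and 10.3% lower, and nothing is read from that difference. With the libraries scaled by the median of ratios, which shifts epithelial log2 ratios by 0.39, 1969 genes were higher and 2025 lower in place of 3293 and 1296. The same shift was 0.13 in muscle, 0.22 in macrophage, 0.30 in dendritic and 0.24 in mesothelial cells, and -0.02 in stromal cells. Without it, 339 muscle, 329 macrophage, 391 dendritic and 190 mesothelial genes were lower, against 679, 959, 1279 and 640 higher. With it the lower and higher counts were 469 and 554, 505 and 586, 646 and 807, and 357 and 413.

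Aldh1a1 (chr19:20492715-20643465, plus strand), a synthesis enzyme, had 42 UMIs in 32 of 949 control cells (2.49 CPM, 1.80 to 3.37) and 88 UMIs in 21 of 105 cKO cells (29.3 CPM, 23.5 to 36.1), a ratio of 11.8 (8.05 to 17.4). All 21 positive cKO cells had at least 2 UMIs of other epithelial markers, and 8 had a UMI of the endothelial gene Pecam1. They were deep cells (median 61395 UMIs, against 10952 for the class). Thinned to 10000 UMIs, 2.59% of 348 control and 13.0% of 54 cKO cells were positive, against 0 lymphoid cells of either library unthinned. Limited to cells with at least 2 UMIs of other epithelial markers, the log2 ratio was 3.76, against 3.55 for the whole gate.

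Cyp26a1 (chr19:37697798-37701536, plus strand), whose start window holds the 5-base-spaced repeat printed above, had 6 UMIs in 4 control cells (0.356 CPM) and 33 UMIs in 7 cKO cells (11.0 CPM), a ratio of 30.9 (12.8 to 90.1). All 7 cKO cells had other epithelial markers, and 11 of the 33 UMIs lay in 1 cell. They were as deep as the Aldh1a1-positive cells (median 61395 UMIs), and thinned to 10000 UMIs 2 of 348 control cells (0.575%, 0.0697 to 2.06) and 2 of 54 cKO cells (3.70%, 0.452 to 12.7) were positive, with overlapping intervals. With cells of more than 1 gate gene included, the log2 ratio was 2.78 in place of 4.85. In the cKO epithelium the degrading enzyme counted was therefore Cyp26a1, with 3 UMIs of Cyp26b1, whereas the stroma had Cyp26b1 and none of Cyp26a1.

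Aldh1a2 in the Epcam gate had 13 and 34 UMIs (0.772 and 11.3 CPM, ratio 14.7, 7.55 to 30.3). Only 8 of the 34 cKO UMIs lay in cells with 2 or more UMIs of other epithelial markers, and with the gate so limited the log2 ratio was 2.27 in place of 3.84. Muscle markers summed to 27.8 CPM in control and 540 CPM in cKO epithelial cells, and stromal markers to 84.4 and 146 CPM. Their part in the Aldh1a2 difference was not tested. Crabp2 had 440 UMIs in control (26.1 CPM, 23.7 to 28.7) and 39 in cKO (13.0 CPM, 9.24 to 17.8), a ratio of 0.497 (0.349 to 0.691), just short of 2-fold on the scale with 0.5 UMI added (log2 -0.99). The share of cells with Crabp2 was 15.2% in both libraries, and thinned to 10000 UMIs the log2 ratio was 0.42, so the direction was not stable to depth. Aldh1a3 had 288 and 35 UMIs (17.1 and 11.7 CPM, ratio 0.682, 0.466 to 0.970). Its log2 ratio of -0.53 was past 2-fold lower by the mean of cells (-1.56), thinned to 10000 UMIs (-1.25) and with cells of several gate genes kept (-1.15). In the control epithelium Crabp2 correlated most with Spink12 (0.41), with Fdps (0.37) and Cyp51 (0.31) of sterol synthesis, and with Cbr2 (0.31) and 4833423E24Rik (0.29). Aldh1a3 correlated with Lor (0.21), a gene of cornified epithelium.

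Macrophages held Cyp26b1 in the control library. It had 50 UMIs in 11 of 231 cells (25.8 CPM, 19.2 to 34.0), 19 of them in 1 cell, and 0 UMIs in 113 cKO cells, which by 3 counts allows a share of cells with a UMI of up to 2.65% (exact upper limit 3.21%). The cKO level was at least 8.93-fold lower against a floor of 3 UMIs for the library (exact lower limit 7.001). It was the 1 gene of the 9 counted in macrophages, where 12.1% of all counted genes were past 2-fold higher and 4.15% lower. The 11 positive cells had macrophage markers at 4502 CPM, against 4538 CPM in the other control macrophages, and stromal markers at 74.5 CPM, against 223 CPM. With cells of more than 1 gate gene included, the log2 ratio was -1.17 in place of -5.76. In control the summed Cyp26b1 level was above that of stroma (11.0 CPM), but the share of cells with a UMI was 4.76% in macrophages and 5.08% in stroma, and the level rests on few cells.

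Dendritic cells were a further place of Aldh1a2. Flt3-gated cells nearly all had a UMI of Ccr7, the receptor of migrating dendritic cells (43 of 44 in control and 133 of 144 in cKO). Aldh1a2 had 22 UMIs in control (40.4 CPM, 25.3 to 61.1) and 254 in cKO (122 CPM, 108 to 138), a ratio of 3.03 (1.96 to 4.92), in 11 of 44 and 49 of 144 cells. The top cKO cell held 27.2% of the UMIs. Stromal markers summed to 23.8 CPM in control and 219 CPM in cKO dendritic cells, in 2 and 36 cells. Lymphoid markers there summed to 99.1 and 509 CPM, red cell markers to 7.34 and 557 CPM, and macrophage markers to 36.7 and 19.7 CPM. The part of these markers in the Aldh1a2 difference was not tested. Crabp2 had 13 and 12 UMIs (23.8 and 5.77 CPM, ratio 0.242, 0.101 to 0.575), with 7 of the 13 control UMIs in 1 cell. These were the 2 genes counted in dendritic cells, 1 past 2-fold in each direction, where 16.2% of all counted genes were past 2-fold higher and 4.96% lower.

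Msln-gated cells had the highest control levels of Aldh1a2 and Aldh1a1. Stromal markers in them summed to 11248 CPM in control and 13028 CPM in cKO, near the 11139 and 11687 CPM of stromal cells, and mesothelial markers to 1757 and 2189 CPM. The part of stromal RNA in the levels was not tested. For Aldh1a2 the control value was 133 CPM (89.6 to 189) and the cKO value 148 CPM (110 to 195), a ratio of 1.12 (0.698 to 1.82). Aldh1a1 stood at 39.8 CPM (18.2 to 75.6) and 40.7 CPM (22.3 to 68.3), a ratio of 1.02 (0.412 to 2.68). Neither of these 2 counted genes was past 2-fold, where 13.3% of all counted genes were past 2-fold higher and 3.94% lower. With 25 and 34 cells, these intervals still allow differences of about the size of the upper bounds. In muscle cells the 1 counted gene was Aldh1a2, with 4 UMIs in control and 38 in cKO (ratio 4.32, 1.55 to 16.7), where 7.55% of counted genes were past 2-fold higher and 3.77% lower. Those 38 UMIs lay in 6 of 539 cells, 17 of them in 1 cell. Stromal markers were found in 72.8% of control and 61.2% of cKO muscle cells, and summed to 1284 and 1540 CPM. Their part in the Aldh1a2 difference was not tested.

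Across classes in control, Aldh1a2 was ordered mesothelial, then stromal and dendritic with overlapping intervals, then muscle (5.32 CPM) and macrophage (3.10 CPM), also overlapping, then epithelial (0.772 CPM), which overlapped with macrophage, and no UMI in lymphoid cells. In cKO the stroma moved to the top, followed by mesothelial and dendritic cells with overlapping intervals. Aldh1a3 was ordered stromal (21.4 CPM) and epithelial (17.1 CPM) in control, with overlapping intervals, and had 0 UMIs in muscle, dendritic and mesothelial cells of both libraries. Crabp2 had overlapping intervals in control epithelial, dendritic and mesothelial cells (26.1, 23.8 and 17.7 CPM), above stroma (3.76 CPM) in the first 2 of these.

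**Figure D4:**
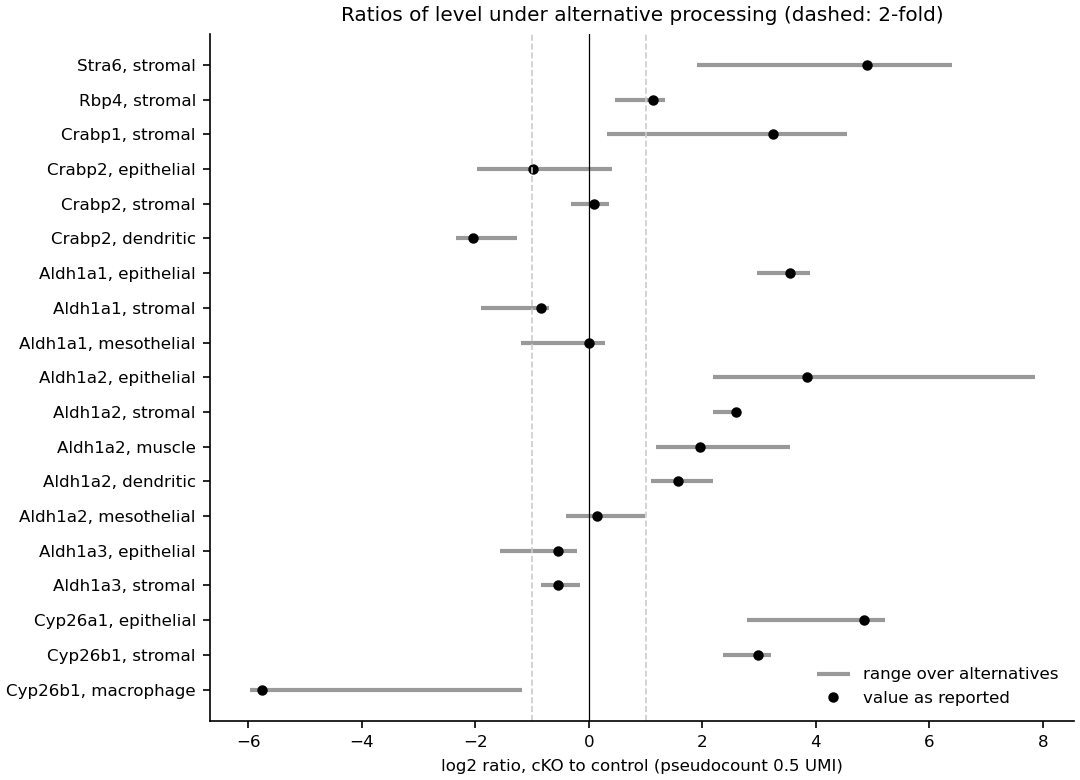
Log2 ratio of level, cKO to control, for each gene and class with at least 20 UMIs (black point), with the range over alternative cell filters, gates, thinning, scaling, background subtraction and weighting (grey line); dashed lines mark 2-fold. Stromal Aldh1a2 (2.18 to 2.68) and Cyp26b1 (2.36 to 3.21) have short ranges above 2-fold, while Crabp1 in stroma (0.32 to 4.55) and Crabp2 in epithelium (-1.96 to 0.42) are wide, as are Stra6 in stroma (1.90 to 6.41), Aldh1a2 in epithelium (2.19 to 7.86) and Cyp26b1 in macrophages (-5.98 to -1.17).

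Other genes of the pathway were counted from lists of carriers, redox enzymes, receptors, retinoic acid targets and ovarian hormone response genes. The stromal counts stand beside 5.44% higher and 6.87% lower over all genes. Of the carrier and storage list 1 of 10 counted genes was past 2-fold higher and 0 lower, namely Lrat, which esterifies retinol, with 3 and 22 UMIs and a ratio interval that included 1 (0.686 to 11.9). Of the retinol and retinal oxidation list 1 of 13 was higher (Adh7, 1.70 to 3.70 CPM, ratio 2.18, 1.24 to 4.13) and 0 lower, with Rdh10, the main retinol dehydrogenase of embryonic mesenchyme, at 150 and 134 CPM. None of the 12 counted receptors and cofactors was past 2-fold. Among retinoic acid targets 2 of 10 were higher, Tgm2 and Lrat, and 1 lower, Rarres2. Tgm2, a transglutaminase, stood at 53.4 and 259 CPM (ratio 4.85, 4.41 to 5.35), and Rarres2, the precursor of chemerin, at 271 and 84.8 CPM (3.19-fold lower). Median log2 ratios of these 4 lists lay between -0.34 and 0.22, against -0.03 over all genes.

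Among ovarian hormone response genes in stroma 5 of 15 were past 2-fold higher and 2 lower, again beside 5.44% and 6.87% over all genes. Hand2, a stromal progesterone target, went from 23 to 667 UMIs (2.79 and 25.2 CPM, ratio 9.03, 5.97 to 14.3). Gli1, a readout of Indian hedgehog signalling, stood at 0.848 and 5.21 CPM (ratio 6.14, 2.90 to 15.6), and Hoxa11 at 14.7 and 37.0 CPM (ratio 2.52). Lcn2, an oestrogen-responsive secreted gene of the epithelium, was 4.51-fold lower. Epithelial markers in stromal cells summed to 33.1 CPM in 21.0% of control cells and 10.8 CPM in 7.13% of cKO cells, and their part was not tested.

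In Epcam-gated cells, where 26.1% of all genes were higher and 10.3% lower, 5 of 10 counted carrier genes were past 2-fold higher and 2 lower. Cd36 (ratio 4.49), Dgat1 (3.21) and Lrat (3.10) were among the higher ones. Of the oxidation list 7 of 10 were higher, among them Rdh12 (2.73 and 13.7 CPM), Adh5 (10.7 and 43.0 CPM) and Dhrs3 (5.94 and 20.3 CPM), and 1 was lower, Dhrs9, at 113 and 13.0 CPM. Among receptors and cofactors Rara (37.2 and 17.3 CPM) and Rarg (40.5 and 19.7 CPM), 2 nuclear receptors of retinoic acid, were past 2-fold lower and Fabp5 (ratio 2.81) higher, of 12 counted. Of the retinoic acid targets 3 of 8 were higher and 4 lower, the latter with Meis2 (4.36-fold lower) and Tgm2 (690 and 292 CPM). Of 14 hormone response genes 3 were higher and 5 lower: Ihh, the progesterone-induced ligand, had 2 and 81 UMIs (0.119 and 27.0 CPM), the latter in 7 of 105 cells, and Clca1 stood at 781 and 6.00 CPM. Ltf, the gene that drives Cre and an oestrogen target, stood at 1548 and 145 CPM. The part of the scaling shift and of the non-epithelial markers of this class in these values was not tested.

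Outside stroma and epithelium, fewer list genes were counted. In muscle Dhrs3 (ratio 4.32), Rdh10 (2.04) and Dgat1 (3.35) were higher, and Rarres2 (2.81-fold) lower. Of 13 hormone response genes counted in muscle 3 were higher, Fst (ratio 11.2, from 3 and 74 UMIs), Hand2 (2.44) and Ptch1 (2.37), and 3 lower, Ltf, Lcn2 and C3, beside 7.55% and 3.77% over all genes. Epithelial markers in muscle cells summed to 241 CPM in 19.3% of control cells and 21.8 CPM in 3.71% of cKO cells, and the cell-free level of Ltf was 612 and 7.002 CPM. Their part in the lower values was not tested. In macrophages Lpl (80.6 and 251 CPM), Nrip1 (91.4 and 250 CPM) and C3 (121 and 256 CPM) were higher. Of the 7 carrier genes counted there 2 were higher and 0 lower, and of the 11 receptors and cofactors 1 and 0. Of the 5 hormone response genes 2 were higher and 1 lower, with a median log2 ratio of -0.75. These counts stand beside 12.1% higher and 4.15% lower over all genes. Of 6 hormone response genes counted in dendritic cells 3 were higher, Pgr, Esr1 and Fst, with 0, 1 and 0 control UMIs and 21, 27 and 24 cKO UMIs. All 3 reached the count minimum through the cKO library, which had 2079454 dendritic UMIs against 545131 in control. For Pgr and Fst, with 0 control UMIs, the call past 2-fold rests on the 0.5 UMI added. Nothing is therefore read from 3 of 6 genes beside the share over all genes. The stromal markers given above for this class, and endothelial markers (11.0 and 247 CPM), were also higher in cKO, and their part was not tested. The 2 lower ones were Areg (112 and 14.9 CPM) and Muc1 (49.5 and 21.2 CPM), beside 16.2% higher and 4.96% lower over all genes, and mesothelial cells had more C3 (1819 and 4108 CPM).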

How the data were processed

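The deposited values were raw UMI counts per gene and barcode for 1 control and 1 cKO library, in matrices that name Cell Ranger as their source, per the file headers. The submitters' processing notes name Cell Ranger 6.1.1 and mm10, with no settings. The matrices were unfiltered (742332 and 822736 barcodes with a UMI, 45035801 and 57145553 UMIs). The genes, lists and stromal marker sets were chosen with earlier results of these data known. In each list and class, genes were named if they had at least 50 UMIs, were past 2-fold and had an interval on 1 side of 1, at most 4 of them, largest first; for likeness, the 5 highest correlations of at least 0.2. Lrat and Rdh10 in stroma, Lcn2 in muscle and Pgr, Esr1 and Fst in dendritic cells were named outside this rule, after their values were seen. Doublets were scored with Scrublet in scanpy 1.11.5 and kept; scores of at least 0.25 (42 and 60 cells) were removed as an alternative. The libraries shared 5 cell barcodes. Levels have exact Poisson, shares exact Clopper-Pearson and ratios exact conditional intervals (scipy 1.17.1, level 95%). Thinning drew UMIs without replacement. Calls and intervals were run on counts simulated as independent Poisson draws from the stromal sums. The intervals are exact for such draws, which leave out the clumping of UMIs by cell. That run therefore does not check them for clumped genes. Gene positions are GENCODE and start windows RefSeq, both on GRCm38. Alternatives added after seeing the data were thinning to 10000 UMIs and the stricter epithelial gate. Some values of the carrier list are not reported here.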

Additional observations from a re-analysis of the deposited data

How the results depend on the processing

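No paired analysis was possible because each group has 1 library. Over 19 ratios of a gene in a class and 232 alternatives, 206 values stayed inside the counting interval of the reported value and 26 did not. No ratio past 2-fold changed sign, but 4 smaller ones did under some alternative: Crabp2 in epithelium and stroma, and Aldh1a1 and Aldh1a2 in mesothelium. The 5 genes higher in stroma were 4 with overlapping gates, by the mean of cells, at a fold limit of 3 and with at least 50 UMIs, and the 3 higher in epithelium were 2 with gates at 2 UMIs. Larger changes follow. Thinned to 1000 UMIs, 2 genes were higher in stroma, 0 in epithelium and 0 in muscle, and 0 were lower in macrophages and 0 in dendritic cells. With cells of several gate genes kept, 5 were higher in epithelium, 3 in muscle and 1 in macrophages, and 1 each was lower in epithelium, muscle and mesothelium. By the mean of cells, 1 was lower in epithelium and 1 in stroma; at a fold limit of 1.5 likewise 1 and 1; with median-of-ratios scaling, 1 in epithelium. At a fold limit of 3, 0 were higher in dendritic cells. With at least 50 UMIs, 1 was higher in epithelium and 0 in muscle, and 0 lower in dendritic cells; with gates at 2 UMIs, 0 lower in dendritic cells. Thinned to 1000 UMIs, the share of cKO stromal cells with Aldh1a2, positive minus negative cells of a second gene, turned to -15.1 points for Crabp1 (1 cell) and -6.82 for Crabp2 (12 cells). With marker sets at 4 UMIs the Aldh1a3 log2 ratio in the Hsd11b2 group was 0.77 in place of -1.71, and in the Cilp group 0.40 in place of -0.86. Apart from fewer cells and UMIs under thinning and stricter limits, the cause was not tested. Muscle (median 1506 and 1594 UMIs) and mesothelial cells limit what could be counted.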

Other observations

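Cells with none of the gate genes and no UMI of Nkg7 or Cd3g (1151 in control and 1595 in cKO) held a further part of these transcripts. Aldh1a2 had 93 UMIs there in control (21.0 CPM) and 728 in cKO (90.0 CPM), in 3.82% and 11.5% of cells. Aldh1a3 had 13 and 231 UMIs (2.94 and 28.6 CPM), and 135 of the 231 lay in 1 cell. Cyp26b1 had 21 and 354 UMIs (4.75 and 43.8 CPM), and 175 of the 354 lay in 1 cell.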
